A study of Mus musculus with 24 samples.

Results

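The retina of adult mice without Nrl was compared with that of wild-type mice at 2 months of age, on 8 of the 24 Affymetrix arrays of the series. The arrays were chosen by their titles, 4 of Nrl knockout and 4 of wild-type retina, and all 12422 probe sets other than array controls were tested. The samples are total RNA of whole retina. The knockout samples are Nrl-/-, and both genotypes are described as of a matched mixed background of the R1 and C57BL/6 strains, with no treatment named. Whether each replicate is 1 animal or a pool is not stated in the labels, and the p-values cover no more than the spread among the arrays, which may be technical in part. Sex-linked genes differed among the arrays of each genotype (values below). The other 16 arrays cover postnatal days 2 and 10 (P2 and P10) and entered the fit only as a source of the spread, except where their levels are named.

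Nrl is a transcription factor of the Maf family that turns on rod genes together with the homeodomain protein Crx. Without it, photoreceptor precursors that would become rods take on features of short-wavelength cones. Rods and cones share one light-signalling cascade, from visual pigment through transducin and phosphodiesterase to a cyclic nucleotide-gated channel, but build it from different gene copies. Müller cells, the main glia of the retina, answer photoreceptor stress with a reaction that runs through gp130 receptors and Stat3. Photoreceptors are also known for high use of glucose with release of lactate, and for outer segment membranes rich in very unsaturated fatty acids.

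Promoters of 6 photoreceptor genes that hold a match to a Crx- or Maf-type motif are shown first, since Crx and Nrl act through short DNA motifs. They were chosen for the match, so a match in each is no finding. The windows are the 250 bases before the RefSeq start site (GRCm38.p6), and 6576 of the 8251 genes measured had one. Capitals mark a match to the Crx-type motif TAATCC or the Maf-type recognition motif TGCTGA on either strand (GGATTA and TCAGCA). The motifs do not overlap in the windows shown. Pde6b (chr5:108388123-108388372, plus strand) and Cnga1 (chr5:72642753-72643002, minus strand) are rod genes that fell, Opn1sw (chr6:29380514-29380763, minus strand) and Gnat2 (chr3:108092816-108093065, plus strand) are cone genes that rose, and Abca4 (chr3:122044210-122044459, plus strand) and Guca1a (chr17:47400607-47400856, minus strand) serve both cell types.
Pde6b: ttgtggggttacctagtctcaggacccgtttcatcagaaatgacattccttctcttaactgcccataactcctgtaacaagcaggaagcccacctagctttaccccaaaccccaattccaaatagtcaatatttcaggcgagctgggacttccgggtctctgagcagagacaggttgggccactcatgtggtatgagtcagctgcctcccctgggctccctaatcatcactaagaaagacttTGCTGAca
Cnga1: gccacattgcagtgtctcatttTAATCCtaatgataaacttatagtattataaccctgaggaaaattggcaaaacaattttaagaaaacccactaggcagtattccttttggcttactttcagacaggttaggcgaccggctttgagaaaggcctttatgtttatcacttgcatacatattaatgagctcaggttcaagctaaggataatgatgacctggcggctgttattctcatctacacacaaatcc
Opn1sw: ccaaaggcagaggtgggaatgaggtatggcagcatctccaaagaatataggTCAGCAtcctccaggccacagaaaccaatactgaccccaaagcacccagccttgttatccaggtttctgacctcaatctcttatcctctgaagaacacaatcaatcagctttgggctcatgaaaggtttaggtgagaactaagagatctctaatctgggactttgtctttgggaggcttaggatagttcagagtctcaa
Gnat2: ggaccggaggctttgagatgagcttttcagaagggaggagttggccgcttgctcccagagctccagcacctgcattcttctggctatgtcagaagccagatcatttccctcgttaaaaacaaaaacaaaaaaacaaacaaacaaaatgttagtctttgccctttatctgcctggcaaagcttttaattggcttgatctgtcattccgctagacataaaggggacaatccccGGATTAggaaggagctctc
Abca4: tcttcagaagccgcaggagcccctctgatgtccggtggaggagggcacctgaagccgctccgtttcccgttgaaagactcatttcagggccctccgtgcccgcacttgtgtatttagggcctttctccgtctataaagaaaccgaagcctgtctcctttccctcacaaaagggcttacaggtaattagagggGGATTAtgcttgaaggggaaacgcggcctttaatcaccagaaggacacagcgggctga
Guca1a: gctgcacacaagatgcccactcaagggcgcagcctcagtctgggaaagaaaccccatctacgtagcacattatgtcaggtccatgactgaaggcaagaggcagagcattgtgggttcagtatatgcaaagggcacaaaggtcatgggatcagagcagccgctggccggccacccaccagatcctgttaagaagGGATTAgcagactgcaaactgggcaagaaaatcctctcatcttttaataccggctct
The matches lie 8 to 3 bases before the start in Pde6b, 228 to 223 in Cnga1, 199 to 194 in Opn1sw, 19 to 14 in Gnat2, 58 to 53 in Abca4 and 57 to 52 in Guca1a. Abca4 and Guca1a thus hold GGATTA at almost the same distance, and Abca4 fell to under its wild-type range while Guca1a did not pass the test (values below). The Crx-type motif was found in 5.06% of all windows, in 6 of 14 of shared photoreceptor genes, 2 of 6 of cone genes and 1 of 5 of rod genes. Among called genes it was in 4.68% of the windows of those that were higher and 6.9% of those that were lower. For the Maf-type recognition motif the shares were 13.2% of all windows, 17.3% of genes that were higher and 10.3% of genes that were lower. These are descriptions of letters in a window, not of binding.

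A gene was called changed at an adjusted p under 0.05, by limma with Benjamini-Hochberg adjustment over all probe sets. By this rule 942 probe sets (7.58%) differed, 530 higher (4.27%) and 412 lower (3.32%), and 139 (1.12%) of them by at least 2-fold. Taking for each gene its brightest probe set, 744 of 8251 genes (9.02%) were called, 419 higher in knockout retina (5.08%) and 325 lower (3.94%). Counts of called list members below are to be read beside these shares. Of the called genes 57 were at least 2-fold higher and 53 at least 2-fold lower. The 4 knockout and 4 wild-type values did not overlap in 658 of the called genes (7.97% of all genes) and in 1004 of all genes (12.2%). Leaving out each array in turn kept 507 of the 744 calls. Arrays of 1 genotype correlated at 0.9911 to 0.9968 across probe sets and arrays of different genotypes at 0.9812 to 0.9867. The ratio of 3' to 5' control probes for Gapdh was 0.81 to 0.863 in knockout and 0.882 to 0.99 in wild-type arrays, without overlap, and that for Actb was 1.646 to 1.851 and 1.634 to 1.717. The part of this difference in the results was not tested.

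Nrl itself read 134, 129, 129 and 189 in wild-type replicates 1 to 4 and 54.2, 52.8, 62.7 and 48.3 in knockout replicates 1 to 4, as linear RMA intensity (all values below keep this order). No knockout array reached the lowest wild-type array, and wild-type replicate 4 lay above the rest. The change was -1.40 ± 0.11 on the log2 scale (estimate ± standard error, adjusted p = 7.11e-11). Knockout P2 retina read 45.2 to 56.4 with the same probe set, so the 2-month knockout level is close to that of newborn knockout retina. The labels do not say whether these probes lie in the deleted part of the gene. Within 20 Mb of Nrl 174 genes were measured, of which 13 were higher and 10 lower, beside shares of 5.08% and 3.94% over all genes. Nrl itself is counted among the 10. Whether this region differs from the rest was not tested.

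Rod genes fell almost as a group. Of 9 measured rod genes 8 fell and 0 rose, with a median log2 change of -1.56, where the median over all genes was -0.01. The targeted gene Nrl is counted among the 8. Whole retina was measured, so fewer cells of a type and less RNA per cell cannot be told apart. In order along the cascade, Gnat1, the alpha subunit of rod transducin, read 5601, 5952, 5368 and 4624 in wild type and 67.8, 12.9, 14.8 and 13.6 in knockout retina. Knockout replicate 1 stood above the other 3, which lay at the level of P2 retina (10.9 to 25.9 over both genotypes). The log2 change of Gnat1 was -8.03 ± 0.35 (adjusted p = 2.88e-16). Its size is uncertain, since such low readings cannot be told from background in these files.

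The rod phosphodiesterase subunits differed in how far they fell. Pde6b, the catalytic beta subunit, read 1672, 1900, 1927 and 1821 in wild type and 83.0, 60.7, 59.9 and 76.5 in knockout retina, a log2 change of -4.72 ± 0.13 (adjusted p = 3.14e-21). Pde6a, the catalytic alpha subunit, lay between 295 and 380 in wild-type and between 107 and 122 in knockout arrays, at -1.56 ± 0.16. Pde6g, the inhibitory subunit, kept the highest share, with 5297, 5632, 5014 and 5653 against 3132, 3006, 2956 and 3668 and a change of -0.76 ± 0.08 (adjusted p = 7.67e-08). Groups did not overlap for any of the 3 subunits. A second Pde6b probe set fell by 2.53 on the log2 scale.

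The channel and the remaining rod genes were low too. Cnga1, the alpha subunit of the rod cyclic nucleotide-gated channel, read 317, 265, 339 and 337 in wild type and 16.6, 19.5, 18.8 and 14.8 in knockout retina, a log2 change of -4.18 ± 0.10 (adjusted p = 4.23e-22). P2 retina of both genotypes read 15.6 to 19.4, so the knockout level at 2 months is close to that of newborn retina, and the size of this change is uncertain in the same way. Reep6, an endoplasmic reticulum protein of rods, was 3083 ± 178 in wild type and 194 ± 18.2 in knockout (SD, n = 4), and Esrrb, a nuclear receptor of rods, 75.3 ± 8.37 and 36.7 ± 4.51. Gnb1, the transducin beta subunit of rods that other cells also use, is the member that did not pass, at 188 ± 54.9 and 211 ± 14.6 by the brightest probe set. The other probe sets went opposite ways, from 371 to 37.3 (log2 change -3.30, adjusted p = 6.02e-18) and from 81.5 to 138 (0.80, adjusted p = 0.00436), so the array gives no one direction for this gene.

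Most cone genes rose, with 7 of 9 higher, 0 lower and a median log2 change of 1.63. The short-wavelength opsin Opn1sw read 883, 725, 672 and 767 in wild type and 6908, 7253, 7102 and 7226 in knockout retina, 9.40-fold higher (adjusted p = 1.32e-17). Its 4 knockout values spread by only 157 (SD). The middle-wavelength opsin Opn1mw did not pass. It read 482, 431, 400 and 504 in wild type and 470, 500, 741 and 811 in knockout (log2 change 0.44 ± 0.17, adjusted p = 0.14), where knockout replicates 3 and 4 lay above all wild-type arrays and replicates 1 and 2 among them.

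All 3 subunits of cone transducin rose. Gnat2, the alpha subunit, read 287, 299, 306 and 331 in wild type and 2123, 2561, 1911 and 2761 in knockout, a change of 2.92 ± 0.13 (adjusted p = 3.66e-16). Gnb3, the beta subunit, went from 866 ± 119 to 4633 ± 715 and Gngt2, the gamma subunit, from 106 ± 7.003 to 889 ± 38.3. Cnga3, the alpha subunit of the cone channel, read 67.2, 63.8, 60.8 and 54.4 against 193, 165, 137 and 166, which is 2.67-fold higher (adjusted p = 4.41e-11). The rise of the channel subunit was thus smaller than the 5.34- to 8.42-fold rises of the transducin subunits, a difference between genes that was not tested. Groups did not overlap for any of these genes.

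**Figure D1:**
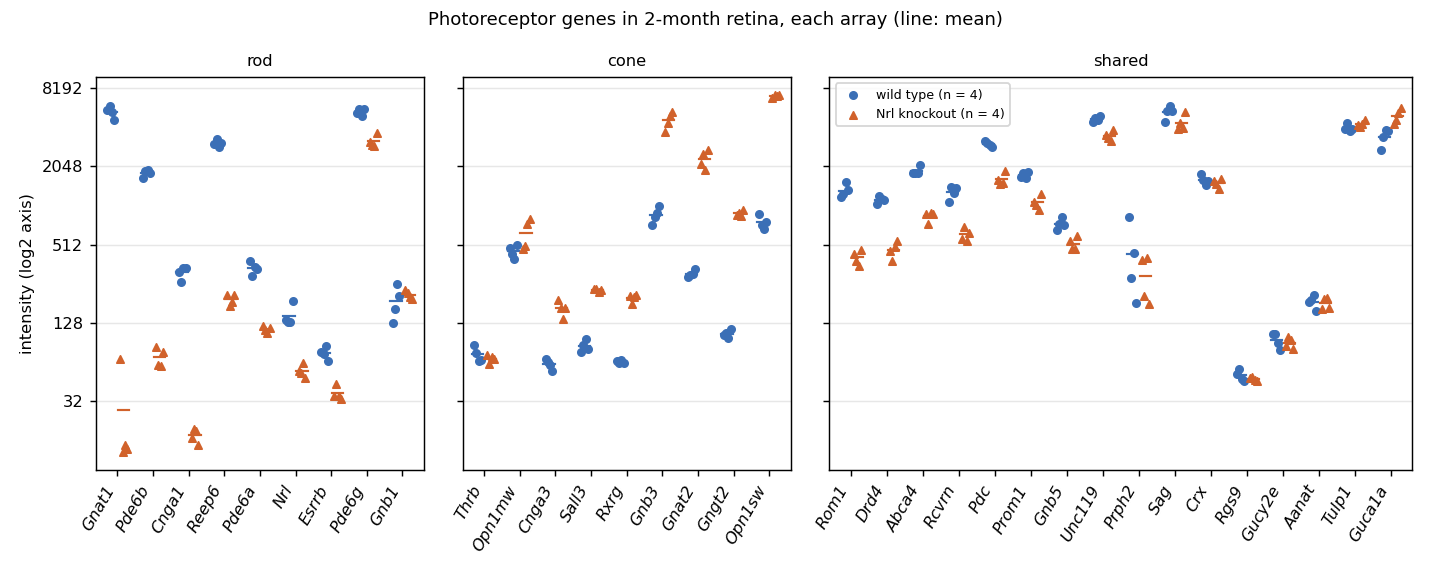
Intensity of rod, cone and shared photoreceptor genes in each array at 2 months, on a log2 axis, with wild-type arrays as circles, knockout arrays as triangles and lines for the group means. Gnat1 and Cnga1 sit below 20 in most knockout arrays, Opn1sw lies near 7122 in all 4, and the shared genes range from the fall of Rom1 to the overlap of Sag and Crx.

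Genes that serve both rods and cones changed by unlike amounts, mostly downward. Of 16 measured, 8 fell and 0 rose, with a median log2 change of -0.43, and 14 lay below 0. The summed intensity was 29337 to 31968 in wild-type and 23900 to 28004 in knockout arrays, without overlap. The largest falls were those of Rom1, which shapes the rims of outer segment discs, from 1333 ± 153 to 410 ± 50.5, and Drd4, a dopamine receptor of photoreceptors, from 1134 ± 71.7 to 469 ± 69.2. Abca4, the flippase that clears retinoid from disc membranes, read 1813, 1816, 1804 and 2093 in wild type and 882, 733, 895 and 878 in knockout retina (log2 change -1.15 ± 0.09, adjusted p = 1.98e-10). Rcvrn, recoverin, which inhibits rhodopsin kinase, fell by 1.08 ± 0.11 on the log2 scale. Pdc, phosducin, which binds transducin, fell by 0.92 ± 0.10 by its brightest probe set, while a dimmer one did not pass (-0.08). Prom1, which shapes disc membranes, Gnb5, part of the complex that switches transducin off, and Unc119, a lipid-binding trafficking protein, changed by -0.71, -0.51 and -0.44.

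The other 8 shared genes did not pass the test. Guca1a, an activator of guanylate cyclase, read 2714, 3449, 3927 and 3810 in wild type and 4356, 4695, 5309 and 5713 in knockout, so that groups did not overlap, yet the adjusted p was 0.10. Sag, rod arrestin, read 4473, 5431, 5943 and 5441 against 3970, 4436, 4010 and 5397 (log2 change -0.26 ± 0.17, adjusted p = 0.59). The level of this gene overlapped between the genotypes. Crx, the homeodomain factor that works with Nrl, was 1619 ± 131 and 1515 ± 114 (adjusted p = 0.72). Prph2, the partner of Rom1 in disc rims, lay between 180 and 831 in wild-type and between 180 and 401 in knockout arrays, a spread too wide to read a difference from.

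Photoreceptor transcription factors split, 5 higher and 4 lower of 16, with a median of -0.02. The targeted gene Nrl is counted among the 4 lower ones. Among cone-side factors Rxrg, a retinoid receptor that represses the short-wavelength opsin in other cones, read 64.5, 62.5, 66.1 and 62.6 in wild type and 204, 180, 202 and 208 in knockout retina, 3.10-fold higher (adjusted p = 2.65e-17). Sall3, a zinc finger gene of cones, was 2.72-fold higher. Thrb, the thyroid hormone receptor of middle-wavelength cones, did not pass, at 73.0 ± 9.55 and 67.5 ± 4.64 (adjusted p = 0.83). Prdm1, a repressor that holds back bipolar fate in young photoreceptors, read 51.4, 41.5, 40.6 and 46.8 against 130, 112, 118 and 136 (log2 change 1.46 ± 0.11, adjusted p = 3.93e-11). The homeobox gene Rax rose from 384 ± 35.9 to 490 ± 37.8.

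Both measured Mef2 genes changed, in opposite directions. Mef2c read 145, 158, 140 and 99.4 in wild type and 31.8, 37.7, 33.0 and 27.9 in knockout, 4.12-fold lower (adjusted p = 4.79e-12), and its 3 other probe sets also fell. Mef2d, which works with Crx in photoreceptors, rose from 1261 ± 59.6 to 1828 ± 140 (adjusted p = 8.46e-05). Groups did not overlap for either gene. Sp4, a zinc finger factor, fell by 0.37 in log2 (adjusted p = 0.0257), a call lost on leaving out knockout array 3 or 4, or wild-type array 2, 3 or 4 (adjusted p = 0.0506 to 0.127).

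Outside these lists, the gene that rose most was Clca1, a secreted regulator of chloride channels, which read 26.7, 23.97, 31.97 and 28.6 in wild type and 411, 475, 389 and 514 in knockout retina (log2 change 4.01 ± 0.16, adjusted p = 3.06e-17). A dimmer Clca1 probe set did not pass (0.15). Wwc1, a scaffold of the Hippo pathway, rose 5.97-fold and by 1.27 on the log2 scale with its other probe set. Gzmm, named as a granzyme, read 169, 193, 209 and 258 against 910, 840, 1052 and 1112. Camk2b, a calcium-dependent kinase subunit, rose from 379 ± 26.4 to 1185 ± 133, Jam3, a junctional adhesion molecule, from 65.1 ± 1.64 to 216 ± 20.8, and Cltb, a clathrin light chain, from 135 ± 11.2 to 527 ± 75.3. Fkbp9, a prolyl isomerase of the endoplasmic reticulum, went from 32.9 ± 4.52 to 166 ± 43.0, with knockout replicate 2 at 103 below the other 3.

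Among the largest falls was Aqp1, a water channel, at 356, 401, 367 and 466 in wild type and 48.4, 54.0, 48.0 and 45.2 in knockout retina (log2 change -3.02 ± 0.12, adjusted p = 1.51e-17). Its dimmer probe set read 52.2 and 47.8 on average and did not pass. Cdr2, a cytoplasmic antigen of neurons, fell from 330 ± 41.5 to 55.4 ± 10.8, Zfp36l2, an RNA-binding protein that promotes decay of messages, from 601 ± 96.1 to 162 ± 9.88, Ccn4, a secreted matrix protein, from 88.4 ± 14.5 to 22.8 ± 2.47, and Polg2, an accessory subunit of the mitochondrial DNA polymerase, from 148 ± 15.1 to 39.6 ± 2.79. The dimmer Zfp36l2 probe sets fell by less, at log2 changes of -0.33 (adjusted p = 0.0335) and -0.41 (adjusted p = 0.103, not called). A dim Polg2 probe set did not pass (0.18). Both snoRNA host genes named by the rule were low. Gas5 fell from 615 ± 48.4 to 98.0 ± 8.57 by its brightest probe set, while its other probe sets did not pass. Snhg6 read 249, 287, 281 and 343 against 74.9, 29.6, 32.5 and 143, with a wide spread in knockout retina (adjusted p = 9.79e-05).

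**Figure D2:**
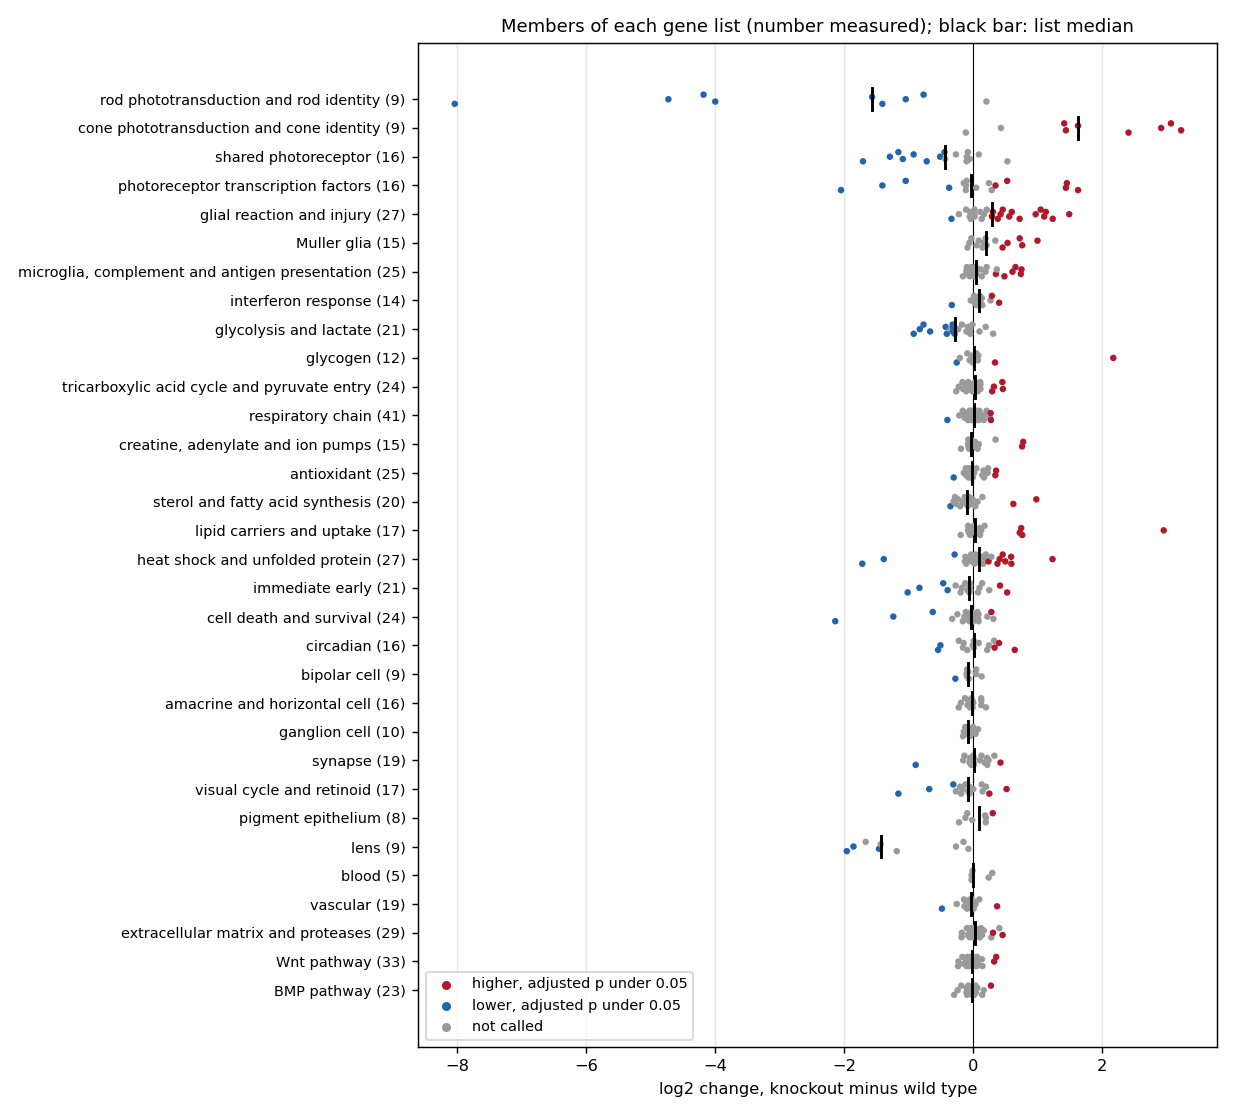
Log2 change from wild type to knockout of every measured member of each gene list, with called genes in colour, uncalled genes in grey and the list median as a black bar. The rod and lens medians lie at -1.56 and -1.43, the cone median at 1.63, and those of inner retinal neurons lie near 0.

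Of 27 measured genes of glial reaction and injury, 14 were higher and 1 lower, with a median log2 change of 0.30 against -0.01 over all genes. The summed intensity of the list was 2593 to 2656 in wild-type and 3292 to 3915 in knockout arrays, without overlap. Summed Müller cell markers stood beside this at 7358 to 8180 in wild-type and 9329 to 10598 in knockout arrays, also without overlap. Their part in the result was not tested. Of 15 measured, 5 rose, 0 fell and 10 did not pass, Glul and Rlbp1 among the latter. Glul, glutamine synthetase, read 566, 662, 712 and 665 in wild type and 737, 586, 543 and 654 in knockout retina (adjusted p = 0.96), and Rlbp1, the retinaldehyde-binding protein of these cells, 503, 524, 513 and 540 against 610, 542, 527 and 637 (adjusted p = 0.38).

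RNA levels of genes of the gp130 route are given in order from receptor to target. Signalling itself was not measured. Osmr, the oncostatin M receptor, read 19.9, 19.9, 17.3 and 24.2 in wild type and 48.8, 37.1, 32.6 and 51.9 in knockout retina (log2 change 1.05 ± 0.12, adjusted p = 2.99e-07). The size of this change is uncertain, since 3 of the 4 wild-type readings were under 20 and cannot be told from background. Il6st, gp130 itself, did not pass, at 85.3 ± 5.58 and 99.6 ± 12.7 (adjusted p = 0.24). Stat3, the transcription factor that gp130 activates, went from 242 ± 15.7 to 317 ± 24.6, a modest rise that 2 probe sets gave (0.39 and 0.45 on the log2 scale).

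Socs3, a feedback inhibitor of gp130 signalling and a target of Stat3, read 98.6, 88.2, 90.4 and 95.2 in wild type and 224, 194, 204 and 263 in knockout, 2.36-fold higher (adjusted p = 4.86e-11), and its second probe set rose by 1.39. Cebpd and Cebpb, transcription factors of the acute phase response, were 2.19- and 1.66-fold higher. Knockout replicate 3 was the lowest knockout array for Osmr, Il6st, Cebpd and Cebpb, and still lay above all wild-type arrays for all of these but Il6st. The Socs3 window before the start (chr11:117969367-117969616, minus strand) is shown because it holds a STAT-type motif, TTCNNNGAA, in capitals.
Socs3: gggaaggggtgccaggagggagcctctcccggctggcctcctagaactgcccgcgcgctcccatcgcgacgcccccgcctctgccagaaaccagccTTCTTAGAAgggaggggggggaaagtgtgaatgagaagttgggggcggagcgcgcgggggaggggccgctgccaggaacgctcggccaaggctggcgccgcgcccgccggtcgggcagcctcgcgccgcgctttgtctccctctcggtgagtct
The match lies 154 to 146 bases before the start. This motif was searched after the values were seen. It reads the same on both strands, and 6.16% of all windows and 3 of 24 of the glial reaction list held it (Socs3, Bdnf and Icam1). Bdnf and Icam1 did not pass the test, with log2 changes of -0.21 and 0.03.

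Among the effectors, Serpina3n, a secreted protease inhibitor of reactive astrocytes, rose most, from 107, 112, 96.9 and 95.7 to 367, 306, 233 and 269 (2.82-fold, adjusted p = 5.51e-12). S100a6, a calcium-binding protein, read 58.1, 60.7, 63.7 and 69.9 against 177, 119, 122 and 132, and A2m, a broad protease inhibitor, 27.3, 23.5, 22.8 and 26.2 against 66.4, 46.1, 43.1 and 43.5. Knockout replicate 1 was the highest array for all 3. Gfap, the intermediate filament of reactive glia, read 60.2, 61.2, 55.2 and 60.7 against 93.1, 98.8, 80.1 and 89.9, a 1.52-fold rise (adjusted p = 1.32e-05), and its dimmer probe set gave 0.30 with an adjusted p of 0.0638. Cp, ceruloplasmin, a copper-carrying ferroxidase, rose from 121 ± 13.02 to 181 ± 36.0, and the endothelin receptor Ednrb from 12.8 ± 0.98 to 17.2 ± 0.97, at a dim level.

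The metallothioneins Mt1 and Mt2, which bind zinc and copper, were 1.38- and 1.23-fold higher. The Mt2 call (adjusted p = 0.0311) was lost on leaving out knockout array 1, 2 or 4, or wild-type array 1, 2 or 4 (adjusted p = 0.0638 to 0.16). Lgals3, a galectin that lies within 20 Mb of Nrl, rose by 0.31 on the log2 scale from a dim level, a call lost on leaving out knockout array 3 or 4, or wild-type array 2 (adjusted p = 0.0656, 0.0814 and 0.0665). Edn2, an endothelin of stressed photoreceptors, was the 1 member that fell, from 70.6 ± 4.77 to 56.2 ± 4.298 (adjusted p = 0.00848, and 0.0521 without wild-type replicate 2).

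Other genes often listed with glial injury did not pass. Vim, a filament protein of Müller cells, was 30.1 ± 1.48 and 32.8 ± 2.91 (adjusted p = 0.65), Timp1, a protease inhibitor, 332 ± 22.6 and 310 ± 28.5, and Lcn2, an acute phase lipocalin, 34.9 ± 4.06 and 33.9 ± 4.08. The chemokine gene Ccl2 averaged 12.8 and 12.5 and the adhesion molecule gene Icam1 14.1 and 14.4, at dim levels. Fgf2, a survival factor, was dim at 15.95 and 17.6 on average.

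**Figure D3:**
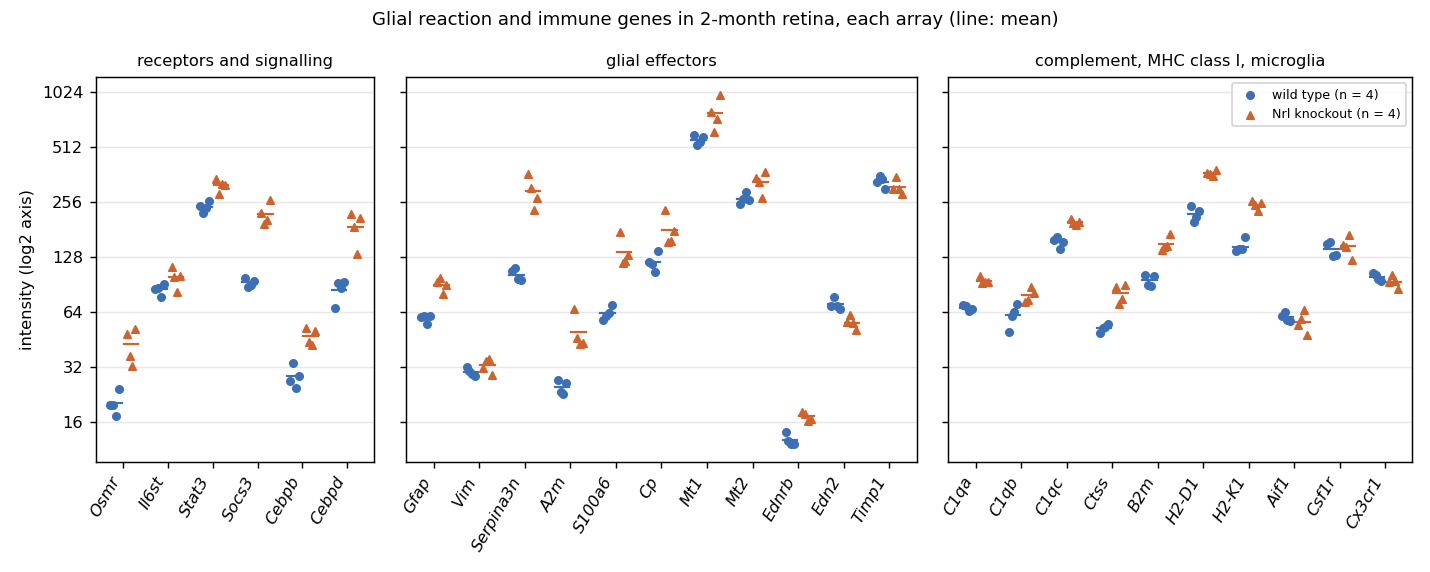
Intensity of glial reaction, complement, MHC class I and microglial genes in each array at 2 months, on a log2 axis, with wild-type arrays as circles, knockout arrays as triangles and lines for the means. Osmr, Socs3, Serpina3n and H2-K1 show 2 separate groups, whereas Vim, Aif1, Csf1r and Cx3cr1 overlap.

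Of 15 measured Müller cell genes 5 rose and 0 fell, with a median of 0.20. Apoe, the main lipoprotein of retinal glia, read 1447, 1481, 1563 and 1792 in wild type and 2603, 2554, 2585 and 2932 in knockout retina (log2 change 0.77 ± 0.09, adjusted p = 5.47e-07). Clu, the secreted chaperone clusterin, which lies within 20 Mb of Nrl, was 884 ± 97.8 and 1465 ± 183. Crym, a thyroid hormone-binding protein, rose from 90.8 ± 12.4 to 181 ± 16.9, Cd9, a tetraspanin, rose from 134 ± 8.08 to 197 ± 29.6, and Ptgds, prostaglandin D synthase, rose with all 3 of its probe sets. Members that did not pass include Aqp4, the water channel of glial endfeet, and the progenitor factor Sox2, with log2 changes of 0.17 and 0.20.

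On the list of 25 microglial, complement and antigen presentation genes 6 rose and 0 fell, with a median of 0.05. The 6 were C1qa and C1qc of complement, the protease gene Ctss, and B2m, H2-D1 and H2-K1 of MHC class I. C1qa, an initiator of the classical complement path, read 69.9, 69.4, 65.3 and 66.3 in wild type and 101, 92.4, 93.4 and 93.8 in knockout (adjusted p = 3.31e-05). C1qc rose from 156 ± 10.2 to 199 ± 6.21, and C1qb did not pass although its groups did not overlap (61.5 and 79.2, adjusted p = 0.12). Ctss, a lysosomal protease of microglia, read 49.3, 52.7, 53.4 and 55.3 against 87.7, 71.1, 75.6 and 90.0.

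B2m, the light chain of MHC class I, read 102, 90.4, 88.7 and 101 in wild type and 140, 146, 148 and 172 in knockout retina, and the heavy chains H2-D1 and H2-K1 were 1.68- and 1.69-fold higher (adjusted p = 2.42e-08 and 8.54e-09). The dimmer H2-D1 probe sets rose by 0.62 and 0.43 on the log2 scale. Those of H2-K1 gave 0.25 (adjusted p = 0.0209) and -0.08 (adjusted p = 0.942, not called). Probes for these heavy chains may share signal, since the genes are near-identical. The MHC class II genes H2-Aa, H2-Ab1 and Cd74 did not pass, at log2 changes of -0.05, -0.02 and -0.03. The microglial markers Csf1r, Cx3cr1 and Aif1 did not pass either. Csf1r, the growth factor receptor of microglia, was 142 and 147 on average, Cx3cr1, a chemokine receptor, 100 and 94.0, and Aif1, a calcium-binding protein of these cells, 60.04 and 56.8.

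Interferon response genes showed 2 higher and 1 lower of 14, beside 9.02% called over all genes. Ifit3, induced by interferon, rose from 37.5 ± 1.87 to 50.03 ± 7.13 (adjusted p = 0.001), and Psmb8, an immunoproteasome subunit, from 49.2 to 60.4 (adjusted p = 0.0119, and 0.0532 and 0.0514 without wild-type replicate 2 or 3). Irf7, an interferon regulatory factor, fell by 0.32 on the log2 scale, a call lost on leaving out knockout array 1, 3 or 4, or wild-type array 2, 3 or 4 (adjusted p = 0.0533 to 0.143). Irf1, Ifit1, Gbp2, Tap1 and Mx1 moved by no more than 0.07, and none passed.

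In energy metabolism, 10 of 21 measured genes of glycolysis and lactate fell, 0 rose and 11 did not pass, with a median log2 change of -0.28, and 18 of 21 lay below 0. The summed intensity was 26967 to 31171 in wild-type and 23341 to 26672 in knockout arrays, without overlap. Summed rod genes stood beside this at 16336 to 17712 and 3641 to 4375, and their part in the result was not tested.

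The called falls of the list ranged from Pfkfb2, Pfkp, Slc16a1 and Pfkl, at -0.92, -0.82, -0.76 and -0.66, to Pdk1 at -0.28. Phosphofructokinase commits glucose to glycolysis. Pfkfb2, which makes the activator of that enzyme, read 86.9, 79.3, 63.6 and 76.1 in wild type and 40.3, 40.5, 39.6 and 40.8 in knockout retina, 1.89-fold lower (adjusted p = 1.39e-05). Pfkp, the platelet-type enzyme, read 514, 455, 521 and 651 against 327, 248, 289 and 348, and Pfkl, the liver-type enzyme, 1065, 1232, 1233 and 1323 against 738, 748, 740 and 838. The muscle-type enzyme Pfkm did not pass (324 ± 39.1 and 348 ± 37.8, adjusted p = 0.73), nor did Pfkfb3, the further form of the activating enzyme (-0.04). The genes of glucose entry given next did not pass the test, and glucose entry itself was not measured. The transporter Slc2a1 was 400.1 ± 17.3 and 343 ± 30.2 (adjusted p = 0.11, no overlap), Slc2a3 changed by -0.04, and Hk2, the hexokinase of photoreceptors, was 1422 ± 206 and 1330 ± 228.

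Further down the path, Pgk1, phosphoglycerate kinase, fell from 1801 ± 86.3 to 1350 ± 143 and Pgam1, phosphoglycerate mutase, from 1439 ± 26.9 to 1091 ± 82.1. Pkm, pyruvate kinase, fell by 0.31 with one probe set and 0.32 with another. Aldoa, an aldolase, fell by 0.31 (adjusted p = 0.0439), a call lost on leaving out knockout array 1, 2 or 3, or wild-type array 2, 3 or 4 (adjusted p = 0.0528 to 0.194). Its relative Aldoc did not pass although its groups did not overlap (1414 ± 87.2 and 1115 ± 81.8, adjusted p = 0.0849). Eno2, the neuronal enolase, went the other way without passing, at 804 ± 100 and 999 ± 84.4 (adjusted p = 0.0537).

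At the lactate end, Ldha, the dehydrogenase subunit that favours lactate, read 3911, 3819, 4406 and 4306 in wild type and 3350, 2970, 3340 and 3586 in knockout retina (log2 change -0.31 ± 0.08, adjusted p = 0.00913, and 0.0525 without knockout replicate 2). Ldhb, the subunit that favours pyruvate, changed by -0.17 and did not pass. Slc16a1, a lactate transporter, fell from 30.8 ± 7.86 to 17.9 ± 2.41, a dim level, while its partner Bsg, basigin, did not pass (0.20). Pdk1, a kinase that keeps pyruvate out of mitochondria, fell by 0.28 in log2 (adjusted p = 0.0188), a call lost on leaving out knockout array 2 or 3, or wild-type array 3 or 4 (adjusted p = 0.0549 to 0.078).

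**Figure D4:**
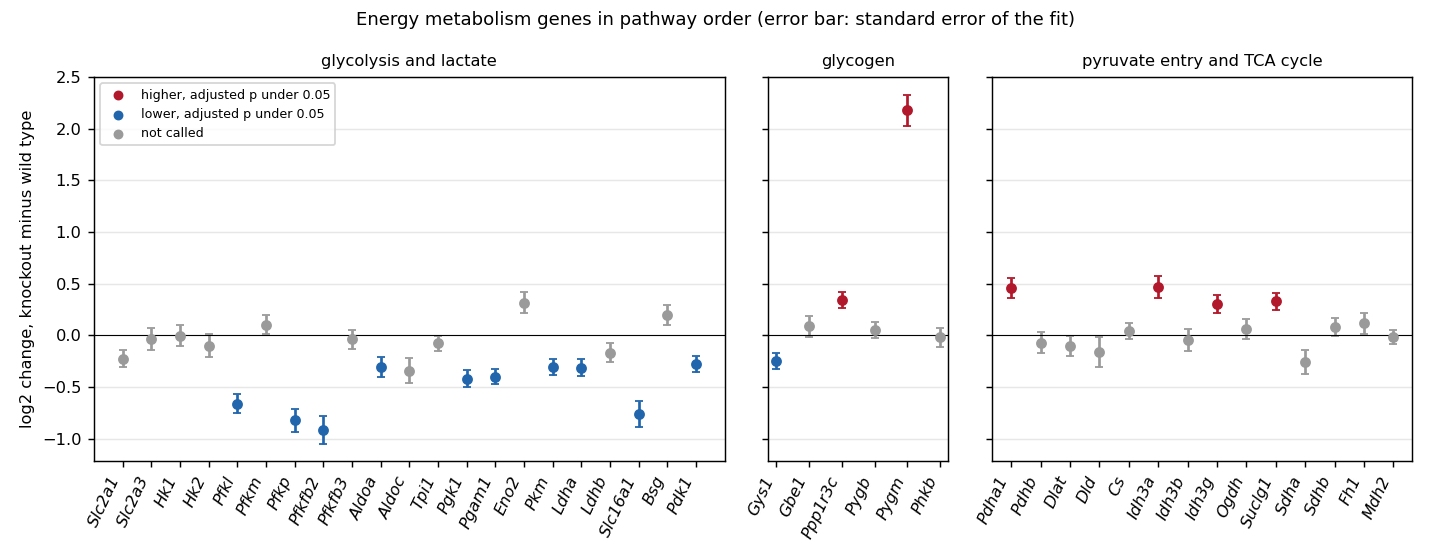
Log2 change from wild type to knockout of genes of glycolysis, glycogen use and the tricarboxylic acid cycle in pathway order, with the standard error of the fit as error bars. Pfkfb2, Pfkp and Slc16a1 lie lowest in the first panel, at -0.92, -0.82 and -0.76, Pygm at 2.18 stands apart in the second, and Pdha1, Idh3a, Idh3g and Suclg1 are the called members of the third.

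Entry of pyruvate into mitochondria and the tricarboxylic acid cycle showed 4 higher and 0 lower of 24, with a median of 0.03. Over all genes 9.02% were called. Pdha1, a subunit of pyruvate dehydrogenase and the enzyme that Pdk1 inhibits, read 460, 414, 397 and 504 in wild type and 634, 534, 562 and 715 in knockout retina (log2 change 0.46 ± 0.10, adjusted p = 0.00231). Idh3a, the catalytic subunit of the isocitrate dehydrogenase of the cycle, read 277, 230, 245 and 284 against 416, 290, 330 and 406 (adjusted p = 0.00496). Knockout replicates 1 and 4 were the high ones for both genes.

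Idh3g, a regulatory subunit of the same enzyme, rose by 0.30 (adjusted p = 0.0339), a call lost on leaving out knockout array 1 or 4, or wild-type array 1, 2 or 3 (adjusted p = 0.0683 to 0.17). Suclg1, of succinate-CoA ligase, rose by 0.33, a call lost without knockout replicate 1 or 4 (adjusted p = 0.0733 and 0.0664). Citrate synthase, Cs, and the malate dehydrogenases Mdh1 and Mdh2 did not pass, with changes of 0.04, -0.07 and -0.02.

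Of 41 respiratory chain genes 2 rose, 1 fell and the median was 0.03. The 9.02% called over all genes would give about as few, so nothing is read from this count. Atp5g2, a ring subunit of ATP synthase, rose from 127 ± 7.82 to 155 ± 11.1 (adjusted p = 0.00711), while a dimmer probe set did not pass. Cox6a1 rose and Cox6c fell, both subunits of cytochrome oxidase, with log2 changes of 0.28 and -0.39. The Cox6a1 call was lost on leaving out knockout array 1 or 4, or wild-type array 1, 2 or 3 (adjusted p = 0.0569 to 0.169), and the Cox6c call on leaving out knockout array 1 or 3, or wild-type array 3 (adjusted p = 0.0767, 0.0856 and 0.0875).

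Glycogen genes held 1 large change. Pygm, the muscle form of glycogen phosphorylase, which releases glucose from glycogen, read 135, 169, 143 and 172 in wild type and 715, 701, 593 and 799 in knockout retina, 4.53-fold higher (adjusted p = 8.4e-12). The brain form Pygb was 119 ± 7.85 and 123 ± 11.9 (adjusted p = 0.93). Ppp1r3c, which targets a phosphatase to glycogen, rose from 62.7 ± 2.62 to 79.9 ± 8.44. Gys1, glycogen synthase, fell by 0.25 in log2 (adjusted p = 0.0371), a call lost on leaving out knockout array 1, 2 or 4, or wild-type array 2, 3 or 4 (adjusted p = 0.0665 to 0.146). Kinase subunits that switch the phosphorylase on, Phka1, Phka2, Phkb, Phkg1 and Phkg2, changed by -0.05 to 0.08, and none passed.

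Of 15 genes of creatine use, adenylate kinases and ion pumps 2 rose, beside 9.02% called over all genes. Slc6a8, the creatine transporter, read 142, 156, 142 and 162 in wild type and 249, 246, 230 and 301 in knockout retina, 1.70-fold higher (adjusted p = 7.35e-08), while its dimmer probe set did not pass (-0.04). Ckb, brain creatine kinase, did not pass although its groups did not overlap (5460 ± 762 and 6929 ± 295, adjusted p = 0.10). Atp1b2, a glial subunit of the sodium pump, rose from 271 ± 46.8 to 469 ± 86.7 (adjusted p = 0.0159), a call lost on leaving out knockout array 1 or 2, or wild-type array 3 or 4 (adjusted p = 0.0551 to 0.0652). The other Atp1b2 probe set did not pass (-0.07). Of 25 antioxidant genes 2 rose and 1 fell, beside the same 9.02% over all genes. Prdx2, a peroxiredoxin, and Gsr, glutathione reductase, rose by 0.36 and 0.35, and Txnrd1, thioredoxin reductase, fell by 0.29. The dimmer Prdx2 probe sets did not pass (-0.02 and -0.12). The call of Txnrd1 was lost on leaving out knockout array 2 or 3, or wild-type array 3 or 4 (adjusted p = 0.0539 to 0.137).

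Of 17 genes of lipid carriers and uptake 4 rose and 0 fell, namely Fabp7, Apoe, Clu and Abca1. Fabp7, a fatty acid-binding protein of glia and neural progenitors, read 58.6, 44.1, 39.0 and 47.5 in wild type and 355, 332, 330 and 454 in knockout retina (log2 change 2.96 ± 0.14, adjusted p = 1.19e-15). Its relatives Fabp3 and Fabp5 changed by 0.02 and -0.07 and did not pass. Elovl2, which lengthens very unsaturated fatty acids, read 40.9, 49.6, 61.8 and 54.7 against 163, 178, 128 and 189. Elovl5, an elongase of shorter unsaturated chains, rose from 129 ± 14.3 to 255 ± 37.0, and Elovl6, which lengthens saturated ones, from 145 ± 19.4 to 224 ± 23.5. Abca1, which exports cholesterol to lipoproteins, was 1.68-fold higher (adjusted p = 0.000438), and a second probe set gave 0.91.

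On the list of 20 sterol and fatty acid synthesis genes 2 rose and 1 fell, beside 9.02% called over all genes. The 2 rises were Elovl5 and Elovl6, and 15 members lay below 0 (median -0.09). Dhcr7, the last enzyme of cholesterol synthesis, fell by 0.35 (adjusted p = 0.0359), a call lost on leaving out knockout array 1, 2 or 3, or wild-type array 2 or 4 (adjusted p = 0.0706 to 0.171). The other 17 members did not pass, and their changes ranged from -0.30 for Fdps to 0.15 for Scd2.

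Chaperone genes moved in both directions, 8 higher and 3 lower of 27, with a median of 0.09. The inducible Hsp70 genes fell. Hspa1b read 248, 260, 273 and 277 in wild type and 97.8, 81.3, 64.3 and 82.5 in knockout retina (log2 change -1.71 ± 0.09, adjusted p = 2.37e-14), and Hspa1a 473, 506, 496 and 536 against 215, 182, 171 and 207. These 2 genes are near-identical, so their probes may share signal. Dnajb1, an Hsp70 partner, fell by 0.28 (adjusted p = 0.0155), a call lost on leaving out knockout array 2 or 3, or wild-type array 3 or 4 (adjusted p = 0.0541 to 0.0631).

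The constitutive Hsp70 Hspa8 rose instead, from 393, 440, 437 and 438 to 771, 763, 453 and 648 (adjusted p = 0.00142), and so did Hsph1, an exchange factor of Hsp70, from 208 ± 15.04 to 497 ± 98.4. Hspa4, a relative of Hsph1, rose by 0.42. Its 4 dimmer probe sets did not pass. Fkbp4, an Hsp90 partner, rose by 0.24 (adjusted p = 0.0475), a call lost on leaving out knockout array 1 or 4, or wild-type array 1, 2 or 3 (adjusted p = 0.11 to 0.16), and its second probe set gave 0.27 (adjusted p = 0.0381).

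Among chaperones and isomerases of the endoplasmic reticulum on the list, Hspa5, Pdia3 and Pdia6 were called higher, while Hsp90b1, Serpinh1, Calr and Pdia4 did not pass, at log2 changes of 0.29, 0.20, 0.14 and 0.04. Hspa5, the Hsp70 of that compartment, read 473, 435, 441 and 538 in wild type and 836, 748, 484 and 655 in knockout retina (log2 change 0.50 ± 0.12, adjusted p = 0.00764, and 0.0589 without knockout replicate 1). Pdia6, a disulfide isomerase, read 174, 147, 138 and 157 against 309, 263, 167 and 216 (adjusted p = 0.00477). Pdia3, a further isomerase, rose by 0.46, a call lost without knockout or wild-type replicate 1 (adjusted p = 0.0835 and 0.0765). In knockout retina replicate 3 was the lowest array for Hspa8, Hspa4, Hsph1, Hspa5, Pdia3, Pdia6, Hsp90b1 and Xbp1. For Hspa5, Pdia6 and Hsp90b1 that array lay inside the wild-type range.

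Hsp90b1, the Hsp90 of the same compartment, and Xbp1, a transcription factor of the unfolded protein response, did not pass (604 ± 110 against 488 ± 15.2, adjusted p = 0.0593, and 195 ± 40.0 against 168 ± 11.3, adjusted p = 0.51). Ddit3, a transcription factor of prolonged stress, rose from 262 ± 21.2 to 343 ± 53.2 (adjusted p = 0.00414), whereas Atf4, which acts above it, changed by -0.01.

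**Figure D5:**
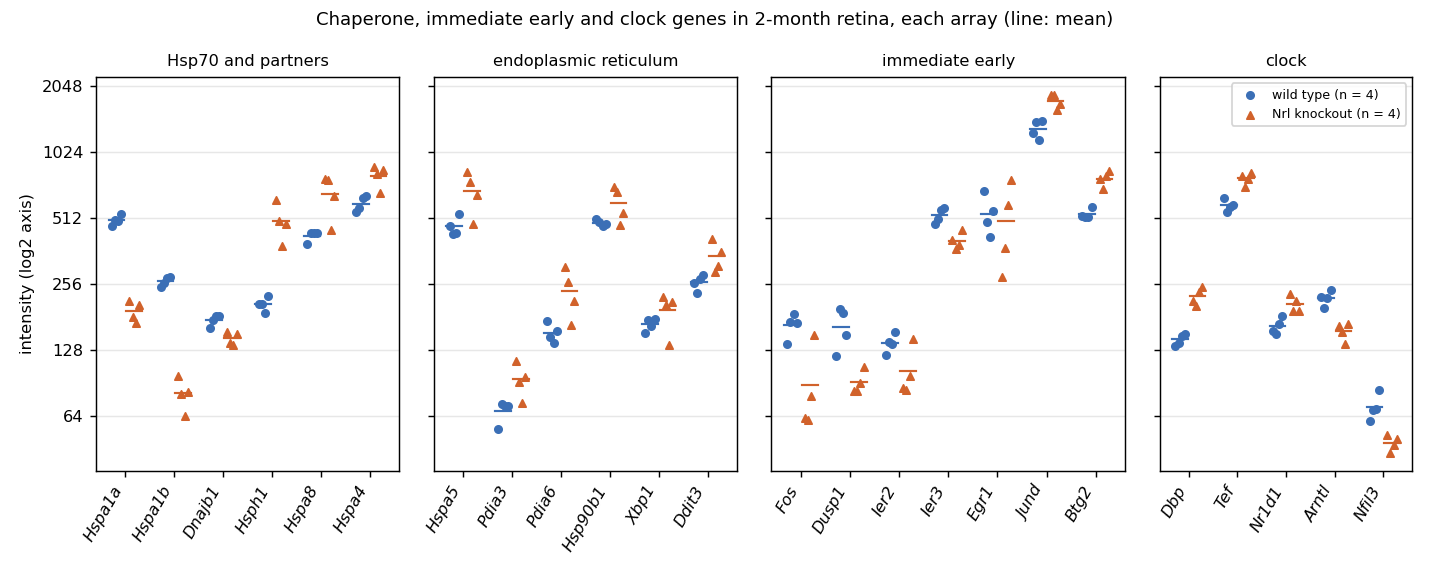
Intensity of chaperone, immediate early and clock genes in each array at 2 months, on a log2 axis, with wild-type arrays as circles, knockout arrays as triangles and lines for the means. Hspa1a and Hspa1b fell while Hsph1 and Hspa8 rose, and the knockout arrays of Fos and Egr1 spread over a wide range.

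Immediate early genes were 2 higher and 4 lower of 21. Fos read 138, 172, 188 and 171 in wild type and 62.7, 61.9, 79.0 and 151 in knockout retina (log2 change -1.01 ± 0.19, adjusted p = 0.000296), with knockout replicate 4 inside the wild-type range. Dusp1, a phosphatase of MAP kinases, read 121, 197, 190 and 150 against 83.5, 83.4, 91.2 and 108. Ier2 and Ier3 fell by 0.46 and 0.39 on the log2 scale. Their calls were lost on leaving out knockout array 1 or 2, or wild-type array 4 for Ier2 (adjusted p = 0.0723, 0.0704 and 0.0591) and on leaving out knockout array 2, or wild-type array 3 or 4, for Ier3 (adjusted p = 0.0627, 0.0567 and 0.0603). Jund and the antiproliferative gene Btg2 rose by 0.42 and 0.53. Egr1 read 685, 493, 421 and 555 against 278, 374, 586 and 764 and did not pass (adjusted p = 0.81).

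Of 24 genes of cell death and survival 1 rose and 3 fell, beside 9.02% called over all genes. Bcl2 and Gadd45b count as not called by their brightest probe sets, at log2 changes of -0.24 and -0.11. The other Bcl2 probe sets were called lower, at -0.42 (adjusted p = 0.000456) and -0.61 (adjusted p = 5.8e-05). So was the other Gadd45b probe set, at -0.32 (adjusted p = 0.0234). Tnfaip3, an enzyme that shuts off NF-kappaB signalling, read 439, 318, 252 and 322 in wild type and 91.8, 65.2, 62.7 and 81.6 in knockout retina, 4.38-fold lower (adjusted p = 9.89e-12). Nfkbia, a further inhibitor of NF-kappaB, did not pass although its groups did not overlap (206 ± 13.6 and 259 ± 46.8, adjusted p = 0.0593). Gadd45a, a gene of growth arrest, fell from 220.2 ± 21.9 to 93.9 ± 11.2, and Bcl2l11, the pro-death protein Bim, from 120 ± 4.66 to 78.1 ± 6.13, the latter by its brightest probe set alone. Bcl2l2, a survival protein that lies within 20 Mb of Nrl, rose by 0.29 (adjusted p = 0.0305), a call lost on leaving out knockout array 2 or 4, or wild-type array 2 or 4 (adjusted p = 0.0675 to 0.133). The caspases measured (Casp1, Casp2, Casp8 and Casp9) changed by -0.13 to 0.09, and none passed.

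Clock genes showed 3 higher and 2 lower of 16. Besides the output genes Dbp and Tef, which rose by 0.65 and 0.41, and the core gene Arntl, which fell by 0.50, Nfil3, a repressor that competes with Dbp, fell. It read 61.2, 68.4, 69.0 and 84.6 in wild type and 52.4, 43.7, 47.3 and 50.8 in knockout retina (adjusted p = 0.000135), and its second probe set did not pass (-0.10). Csnk1e, a kinase of the clock, rose by 0.34 (adjusted p = 0.0223), a call lost on leaving out knockout array 3 or 4, or wild-type array 1, 3 or 4 (adjusted p = 0.0524 to 0.0644). The genes Per1, Per2, Per3, Cry1 and Cry2 did not pass, with changes of -0.22 to 0.22. The labels used here give no hour of collection, and its part in these values was not tested.

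Lists of inner retinal neurons held few calls, and at their size the 9.02% called over all genes would give about as few, so nothing is read from these counts. None of 16 amacrine and horizontal cell genes and none of 10 ganglion cell genes was called by limma, with medians of -0.02 and -0.07. At an unadjusted p under 0.05 the counts were 1 of 16 and 0 of 10. Their summed levels overlapped, at 4391 to 4755 in wild type and 4284 to 4778 in knockout for the former and 1667 to 1928 and 1549 to 1808 for the latter. Of 9 bipolar cell genes Prkca, the kinase of rod bipolar cells, fell from 159 ± 11.2 to 132 ± 7.35 (adjusted p = 0.0316), a call lost on leaving out knockout array 1, 2 or 3, or wild-type array 1 or 4 (adjusted p = 0.0534 to 0.11). Trpm1, the light-response channel of ON bipolar cells, changed by -0.06.

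Of 19 synaptic genes 1 rose and 1 fell, beside 9.02% called over all genes. Cacnb2, the beta subunit of the photoreceptor calcium channel, read 254, 212, 197 and 246 in wild type and 137, 117, 112 and 126 in knockout retina, a change of -0.88 ± 0.12 (adjusted p = 5.88e-06). Dlg4, the scaffold protein PSD-95, rose from 421 ± 37.4 to 568 ± 67.2. The ribbon gene Ctbp2 and the active zone gene Bsn did not pass, with changes of 0.25 and 0.02.

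In the retinoid path 2 of 17 genes rose and 3 fell. Abca4, given above, fell most. Dhrs3, a retinal reductase, read 92.8, 97.4, 87.2 and 139 in wild type and 65.2, 59.5, 67.9 and 63.9 in knockout retina (adjusted p = 0.00147). Rdh11, a retinol dehydrogenase of photoreceptors, fell by 0.30 (adjusted p = 0.0381), a call lost on leaving out knockout array 2 or 3, or wild-type array 1 or 4 (adjusted p = 0.0803 to 0.188). Rbp4, a retinol carrier, rose from 14.5, a dim level, to 20.9. Cyp26a1, which breaks down retinoic acid, rose from 20.1 to 24.1, close above the dim range. The Cyp26a1 call (adjusted p = 0.0493) was lost without any 1 of the 8 arrays except knockout replicate 4 (adjusted p = 0.0517 to 0.181).

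Markers of neighbouring tissues were compared as a check of the dissection. Of 9 lens genes 3 fell, with a median of -1.43, and all 9 lay below 0. Crybb2, a further crystallin, counts as not called at -0.07 by its brightest probe set, while its other one fell from 383 ± 101 to 129 ± 40.3 (log2 change -1.60, adjusted p = 3.42e-07). The summed level of the lens list was 1737, 1937, 2669 and 2672 in wild type and 738, 1101, 1251 and 1180 in knockout, without overlap, and wild-type replicates 3 and 4 were the high ones. Crygs, a crystallin, read 212, 327, 432 and 418 against 58.9, 132, 159 and 180 (adjusted p = 0.00152). The calls of Crygb and Crygc, near-identical crystallins of which the array may not tell one from the other, were lost when single arrays were left out. For Crygb these were each knockout replicate and wild-type replicates 3 and 4 (adjusted p = 0.0607 to 0.134), and for Crygc knockout replicate 1 and wild-type replicates 3 and 4 (adjusted p = 0.0554, 0.0528 and 0.053). The part of lens tissue in other results was not tested.

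Of 8 pigment epithelium genes 1 rose and 0 fell, beside 9.02% called over all genes. This gene, Ttr, transthyretin, rose by 0.31, a call lost on leaving out knockout array 1, 3 or 4, or wild-type array 2 or 3 (adjusted p = 0.0524 to 0.192). The summed level of that list was 459 to 508 in wild-type and 513 to 569 in knockout arrays. None of 5 blood genes was called by limma, and 1 was at an unadjusted p under 0.05. Of 19 vascular genes 1 rose and 1 fell, beside the same 9.02%. Rgs5, a marker of pericytes, fell from 50.9 ± 1.01 to 36.6 ± 3.15 (adjusted p = 0.000463), while its dimmer probe set did not pass. Vegfa, a growth factor for vessels, rose from 94.1 ± 5.83 to 122 ± 6.56 (adjusted p = 0.00451). Pecam1, Cdh5 and Tek, markers of endothelium, changed by -0.13, -0.02 and 0.04.

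Sex-linked genes differed from array to array. Xist, expressed from the inactive X of females, read 107, 10.3, 9 and 45.5 in wild type and 8.90, 9.23, 209 and 179 in knockout retina, and Eif2s3y, a Y-linked gene, 25.8, 126, 122 and 73.9 against 80.5, 88.9, 21.6 and 21.8. Wild-type replicate 4 read at a middle level for both genes. None of the 4 sex-linked genes measured was called by limma (0 at an unadjusted p under 0.05), and the part of sex in other results was not tested.

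Of 29 matrix and protease genes, 33 Wnt pathway genes and 23 BMP pathway genes, 2, 2 and 1 were called, and at these sizes such counts are near the 9.02% of all genes. Of the 29 matrix and protease genes Ctsd, the lysosomal protease cathepsin D, read 795, 827, 814 and 820 in wild type and 1169, 1114, 1018 and 1195 in knockout retina (log2 change 0.46 ± 0.06, adjusted p = 6.06e-06). Tnc, a matrix glycoprotein, rose by 0.31 (adjusted p = 0.0452), a call lost on leaving out knockout array 1, 3 or 4, or wild-type array 2, 3 or 4 (adjusted p = 0.0639 to 0.203). Of 33 Wnt pathway genes Frzb, a secreted inhibitor, rose from 77.2 ± 3.52 to 99.8 ± 11.04, and Wnt5a, a ligand, rose by 0.33, a call lost on leaving out knockout array 1 or 3, or wild-type array 1, 2 or 4 (adjusted p = 0.054 to 0.164). Of 23 BMP pathway genes the receptor Acvr1 rose by 0.28, a call lost on leaving out knockout array 1 or 4, or wild-type array 1 or 2 (adjusted p = 0.0546 to 0.0829).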

How the data were processed

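Total RNA of whole retina was hybridised to Affymetrix arrays. The deposited intensity values are linear and come from RMA, which the submitters' processing notes name. Its version and the arrays normalised together are not given in the sources used here. RMA intensities have no detection call, so readings under about 20 are called dim and cannot be told from background. The 66 array controls among 12488 probe sets were not tested, and 10833 of the 12422 tested carry 1 gene symbol, 396 several and 1193 none in the platform annotation, giving 8251 genes. Where a gene has several probe sets, the brightest one (by mean log2 over the 24 arrays) stands for it. The other probe sets are not given for every gene named. Values are mean ± SD over 4 replicates.

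One limma 3.58.1 model (R 4.3.3) with 6 group means was fitted to log2 intensity of all 24 arrays, and knockout minus wild type at 2 months was tested, two-sided, with Benjamini-Hochberg adjustment over 12422 probe sets. On simulated data the steps recovered 79% of log2 changes of 0.5 and 100% of those of 1, with 5 false calls. The simulated noise was independent for each probe set and array. It therefore does not show how many false calls deviations shared across probe sets would give. The number of arrays limits the precision. Genes named are Nrl, members of 33 lists (581 of 740 listed genes measured), and, of the called genes without overlap between groups, the 15 that rose most and the 15 that fell most; others are said to be chosen after their values were seen. The members and lists were chosen with earlier results of these data known. Lists are described by counts and medians, and no list was tested. Promoter windows come from RefSeq (GRCm38.p6). Alternatives were 2 further normalisations, a dim filter at 64, trended and robust moderation, array weights, a pseudocount of 16, only the 8 arrays, a replicate block, stricter thresholds, the mean over a gene's probe sets and leaving out each array. Python 3.11.15 and matplotlib 3.10.9 made the figures.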

Additional observations from a re-analysis of the deposited data

Results flagged for a closer look

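For 255 of the genes named, each group of 4 arrays was checked for 1 outlying array. Its gap to the nearest other had to be larger, relative to the group's range, than Dixon's critical value, and 30 of 510 groups had one. Chance gives about 1 in 20 groups, so this number is near what chance gives, and the reasons were not tested. Values are linear RMA intensities.

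Wild-type replicate 4 was highest for Nrl at 189.2 (others 129 to 134.1), Abca4 at 2092.9 (others 1804 to 1816), Polg2 at 170, H2-K1 at 164.9, Prdx2 at 958.1, Btg2 at 578.6 and Pla2g12a at 427.4, and lowest for Phkb at 74.28 (others 86.56 to 86.89). Wild-type replicate 2 was highest for Maf at 53.13, Csnk1e at 172.2 and Pla2g7 at 181.6 and lowest for Cdh5 at 45.06. Wild-type replicate 3 was highest for Mef2d at 1349.5 and lowest for Fgf2 at 15.07, Gsr at 110.1 and Alpl at 490.7. Wild-type replicate 1 was lowest for Hspa8 at 393.2, Pdia3 at 56.32 and Sptssa at 124.6.

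Knockout replicate 1 was highest for the rod transducin gene Gnat1 at 67.77, where the other knockout arrays read 12.86 to 14.78, and for A2m at 66.37 and C1qa at 101.3. Knockout replicate 2 was lowest for Abca4 at 733.2 and highest for Irf7 at 107.4. Knockout replicate 3 was lowest for Sox2 at 91.7 (others 149.3 to 153.1). Knockout replicate 4 was highest for Camk2b at 1381.8, Apoe at 2932.0, Pfkl at 837.9 and Vtn at 1359.8, and lowest for Per3 at 72.94.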

How the results depend on the processing

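The count of called probe sets (942) was 865 to 1292 over the other normalisations, filters and models and 776 to 905 with 1 array left out, 657 at an adjusted p under 0.01 and 139 with at least a 2-fold change. With a replicate block within the 8 arrays it was 1175, of which 916 were shared. The labels do not say whether equal replicate numbers mark related samples, and the main fit does not pair them. Same-numbered deviations correlated at 0.136, 0.374, -0.04 and 0.54, and those of unlike number at -0.473 to 0.345. Knockout replicates 2 and 4 correlated best with their own number. Knockout replicate 3 correlated best with wild-type replicate 1 (0.334) and knockout replicate 1 with wild-type replicate 4 (0.144). Whether arrays of equal number share a batch was not tested. With log2(intensity + 16) the rod, cone and glial medians were -1.44, 1.42 and 0.19. With the dim filter the glial list had 9 higher members and a median of 0.43. Its lower members numbered 0 to 1 with 1 array left out, 0 without wild-type replicate 2. Higher members of the glycolysis list numbered 0 to 1 with 1 array left out (1 without wild-type replicate 4), and 1 under the dim filter, the intensity trend, array weights, log2(intensity + 16), the replicate block and the mean over all probe sets. Eno2 was that member in each of these but the last. The causes were not tested.

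Of 172 called genes named, 138 kept the call under every alternative fit that held their probe set, and 0 reversed. Genes that the dim filter removed were not counted as lost. The stricter thresholds and the mean over a gene's probe sets were not part of these gene counts. Median centring lost 9 calls, the 8 arrays alone 13, the replicate block 3 and 1 array left out 11 to 22. Of 83 uncalled genes 14 were called under some alternative. Of 67 other probe sets of 51 called genes, 31 were called the same way, 36 were not called and 0 went the other way. Of 1566 other list values 151 moved, and 0 list medians reversed. The number of arrays limits the precision.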

Other observations

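Most genes below were chosen after their values were seen, from those called by limma with groups that did not overlap. Pnp and Fam3c belong instead to the largest rises and falls named by the rule. All are given as values with no theme tested. Adipor1, a receptor linked to uptake of docosahexaenoic acid by photoreceptors, read 458, 462, 403 and 475 in wild type and 176, 142, 148 and 179 in knockout retina (log2 change -1.48 ± 0.09, adjusted p = 3.53e-13). Agpat3, an acyltransferase of phospholipid synthesis, fell from 610.0 ± 50.2 to 268 ± 21.1, and the phospholipases Pla2g7 and Pla2g12a fell by 0.89 and 0.87 on the log2 scale. A second, dimmer probe set of Pla2g12a did not pass (adjusted p = 0.978). Sptssa, a subunit of the enzyme that starts sphingolipid synthesis, rose from 146 ± 14.5 to 363 ± 55.2, and the sialyltransferases St3gal5 and St3gal3 were 1.70- and 2.07-fold higher. Pnp, purine nucleoside phosphorylase, which lies within 20 Mb of Nrl, read 193, 169, 161 and 216 in wild type and 863, 687, 715 and 844 in knockout retina (log2 change 2.08 ± 0.10, adjusted p = 5.41e-15). Guk1, a guanylate kinase, rose from 702 ± 29.6 to 1327 ± 129, and Nt5e, an ectoenzyme that makes adenosine, fell from 215 ± 33.6 to 79.2 ± 17.8.

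Sgk1, a kinase induced by glucocorticoids, read 419, 497, 535 and 444 in wild type and 176, 175, 138 and 222 in knockout retina. Ndrg1, a gene induced by hypoxia, fell by 1.39 and 1.37 on the log2 scale with its 2 probe sets, Ddit4, an inhibitor of mTOR signalling, fell by 1.13, and Slc25a25, a mitochondrial carrier, fell from 1019.8 ± 117 to 513 ± 32.6. Fam3c, a secreted protein, fell from 893 ± 50.1 to 269.9 ± 52.4, and its 2 further probe sets were called lower too. Alpl, alkaline phosphatase, fell from 591 ± 67.2 to 186 ± 9.44, Cst3, the protease inhibitor cystatin C, from 2480.0 ± 197 to 1549 ± 105, and Vtn, vitronectin, from 1765 ± 146 to 1148 ± 143. The rises included Txndc5, a disulfide isomerase (2.75-fold), Scg3, a granin of secretory vesicles (2.50-fold), the homeobox genes Crxos and En2 (2.49- and 2.97-fold), and Glo1, which detoxifies methylglyoxal (2.15-fold). Cckbr, a cholecystokinin receptor, Adcy2, an adenylate cyclase, and Pdpn, podoplanin, were 2.35-, 2.00- and 2.20-fold higher.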
